A study of Mus musculus with 9 samples.

Results

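Enteroendocrine cells are scattered hormone-secreting cells of the gut epithelium, and the 9 genes described here stand for their making and their contents. Of these, 7 encode transcription factors that drive or refine enteroendocrine differentiation (Neurog3, Neurod1, Insm1, Nkx2-2, Pax4, Pax6 and Isl1), and 2 encode granins, acidic proteins of the secretory granule (Chga and Chgb). They were chosen by symbol, and every array probe set annotated to exactly one of these symbols was taken. That gave 17 probe sets for 9 genes, of 45037 probe sets in all and of 18193 genes with a probe set of their own. Of the 17, 12 passed a filter on dim probe sets and were tested, covering 8 genes. Pax4, 1 of 2 Neurog3 probe sets and 3 of 5 Pax6 probe sets did not pass it.

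The study put total RNA from male adults aged 6 to 8 weeks on Affymetrix mouse arrays, with 1 mouse to an array and 3 mice to a group. Control jejunum and control ileum came from different Gata4loxP/+VilCre mice, and mutant jejunum from Gata4loxP/-VilCre mice. Jejunum was taken 10 cm from the pylorus and ileum 1 cm from the cecum. Every animal therefore had VilCre, a Cre driven by the epithelial villin promoter, and a Gata4 copy that Cre can delete. The control animals are not free of recombination, and the groups differ in genotype by the remaining copy, wild type or null. The sources used here do not name the gut layers sampled, so muscle and nerve may be present with the epithelium.

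In the gut epithelium, progenitors that escape Notch signalling and take the secretory route may switch on Neurog3 briefly, which commits them to the enteroendocrine fate. Neurod1, Insm1, Nkx2-2, Pax4, Pax6 and Isl1 act after Neurog3, and their combination helps to set which hormone a cell makes. The mature cell stores its hormone in dense-core granules with chromogranin A and chromogranin B, the products of Chga and Chgb, which are shared by most enteroendocrine types. Which hormones are made differs along the gut, with Cck and Gip typical of the proximal and Gcg, Pyy and Nts of the distal small intestine.

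All levels below are normalized log2 intensities, log2(intensity + 16) with the same distribution given to every array, and differences are on that scale. A level of 4 corresponds to an intensity of 0, and the filter asked for a level above 4.95 on at least 3 of 9 arrays. Calls are at an adjusted p under 0.05 in limma over all 29307 tested probe sets. Levels of different probe sets are not comparable with each other on an array. Before normalization the ileum arrays were dimmer, with trimmed mean intensities of 96.8 to 122 against 147.5 to 180 on the jejunum arrays. The spike-in controls of the array were dimmer there too, with geometric means of 804.5 to 1013 against 1435 to 1783. The cause of the dimness was not tested. Gata4 itself stood at 9.57, 9.49 and 9.52 in control jejunum, at 9.61, 9.51 and 9.38 in the mutant jejunum and at 5.64, 5.30 and 5.20 in the ileum by its brighter probe set. The sources used here do not place the Gata4 probe sets relative to the deleted part, so these levels check nothing about the deletion.

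Chromogranin B RNA fell in the jejunum of the mutants, 1.70-fold, a call that 5 of 20 alternatives ended, 3 of them by leaving out a single array. In control ileum it stood 2.04-fold below control jejunum, in all 20 alternatives. Chromogranin A RNA and Neurog3 RNA were lower on every mutant array than on every control jejunum array, by 1.58-fold and 1.48-fold, but neither passed the adjusted threshold, and 22.5% of all tested probe sets had such groups without overlap. No tested probe set of a differentiation factor was called in any of the 3 comparisons, 0 of 10 each time. Over all tested probe sets 1.74% were called higher and 1.82% lower in mutant against control jejunum, 8.36% and 7.86% in control ileum against control jejunum, and 1.39% and 1.27% in mutant jejunum against control ileum. With no scaling between arrays, where the dimmer ileum arrays put the median over all probe sets at -0.40, Neurog3 (-0.62, adjusted p = 0.0227 in limma), Neurod1 (-0.66, adjusted p = 0.0291) and Nkx2-2 (-0.58, adjusted p = 0.0430) were called lower in control ileum than jejunum. In that setting the dimmer Isl1 probe set was called higher in mutant jejunum than in control ileum (0.74, adjusted p = 0.0288), beside a median of 0.41. In the plot of levels by array, the groups overlap for Insm1 and Isl1. Between control jejunum and control ileum 6 of the 12 tested probe sets do not overlap, against 37.4% of all tested probe sets. The brightest Pax6 probe set is higher in ileum. Nkx2-2, Chga, Chgb and the brighter probe sets of Neurog3 and Neurod1 are lower there. Pax4, which was not tested, does not overlap between these groups either.

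**Figure D1:**
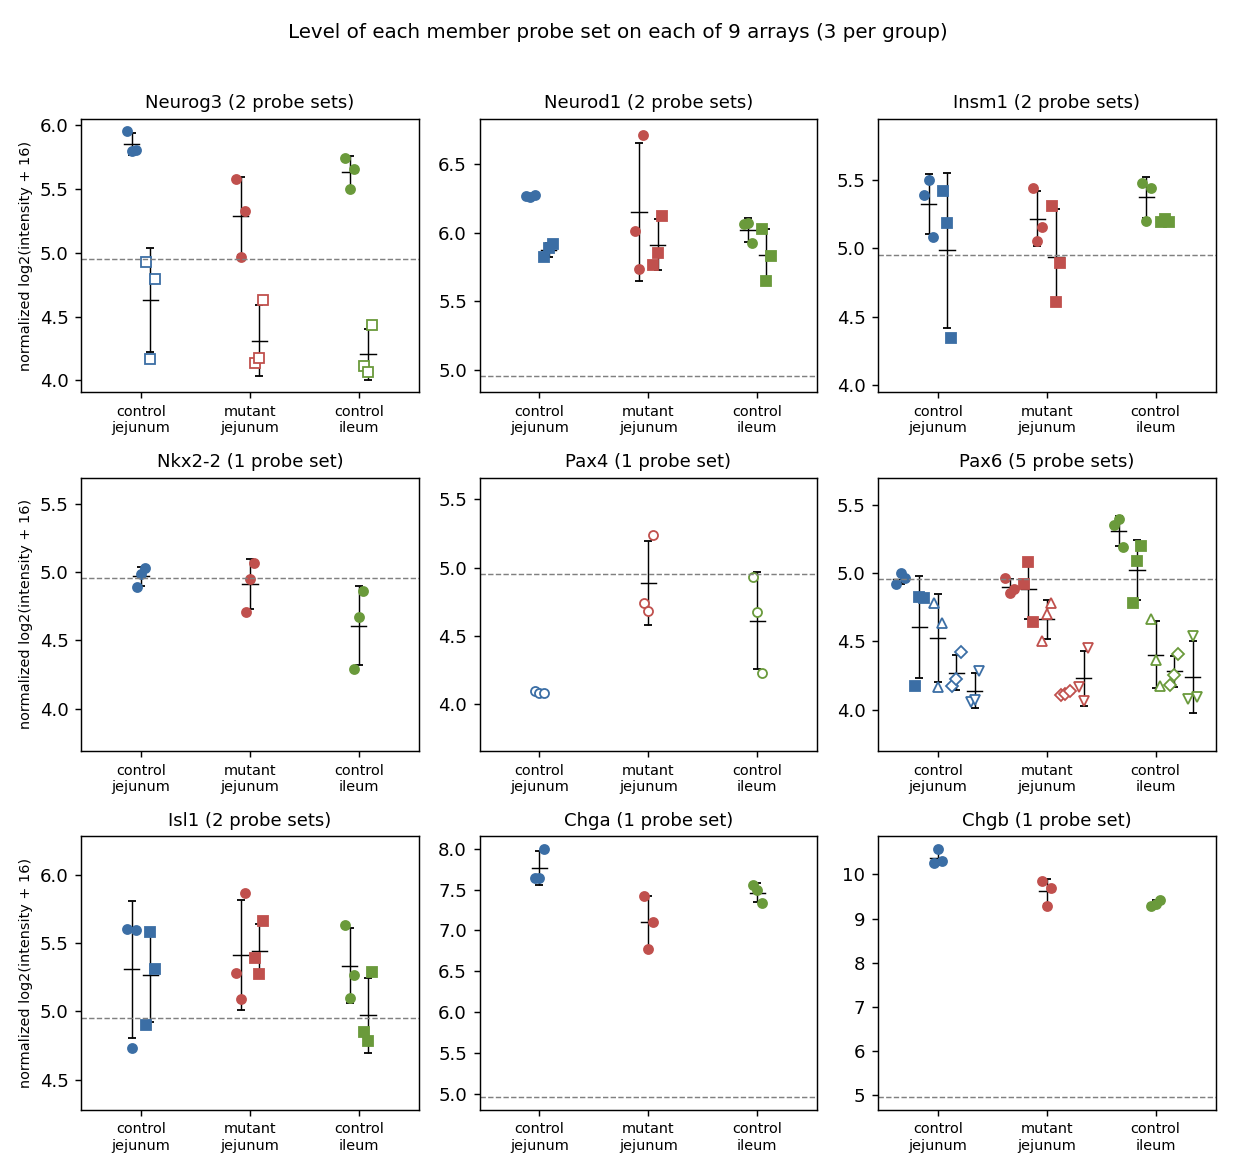
Normalized log2 level of each member probe set (vertical axes) on each of the 9 arrays, by group. Points are arrays, horizontal bars are group means and the dotted line is the filter level of 4.95. The mutant arrays of Chgb, Chga and Neurog3 probe set 1 lie below all control jejunum arrays, and Pax4 lies near the floor of 4 on the control jejunum arrays.

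Neurog3, the basic helix-loop-helix factor that commits cells to the enteroendocrine fate, stood at 5.96, 5.80 and 5.81 in control jejunum, at 5.58, 4.97 and 5.33 in the mutant jejunum and at 5.75, 5.50 and 5.66 in the ileum by the probe set that was tested. Every mutant array lay below every control jejunum array, while mutant jejunum and control ileum overlapped. Mutant jejunum was lower than control jejunum by a difference of -0.56 (SE 0.178, 95% interval -0.95 to -0.17, n = 3 against 3). Its adjusted p of 0.126 in limma does not pass. Control ileum differed from control jejunum by -0.22 (95% interval -0.61 to 0.17, adjusted p = 0.443 in limma), and mutant jejunum from control ileum by -0.34 (95% interval -0.74 to 0.05, adjusted p = 0.379). The deposited intensities behind these levels were low, 45.7 to 52.2 in control jejunum and at most 35.4 on the other arrays. The second Neurog3 probe set was above the filter level on 0 arrays, with group means of 4.63 in control jejunum, 4.31 in the mutant jejunum and 4.20 in the ileum. The group means of both probe sets were thus highest in control jejunum.

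The promoter of Neurog3 is shown because the deleted factor, Gata4, binds GATA motifs, and Neurog3 is the member that starts the lineage. It runs from 250 bases before to 50 bases after the annotated transcript start, at chr10:62132840-62133139 on the plus strand of GRCm38.p6, from RefSeq, with the GATA motif AGATAA in capitals.
Neurog3: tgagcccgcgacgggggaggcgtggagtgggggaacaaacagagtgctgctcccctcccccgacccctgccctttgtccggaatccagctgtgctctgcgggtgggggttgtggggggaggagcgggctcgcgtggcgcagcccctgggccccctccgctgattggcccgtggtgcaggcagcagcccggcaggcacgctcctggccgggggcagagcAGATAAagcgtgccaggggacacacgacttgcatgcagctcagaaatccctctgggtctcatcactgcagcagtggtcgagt
AGATAA or TGATAA, on either strand, was found in 18.6% of all 32851 RefSeq mouse promoter windows of this length. The match only describes the window, and binding to it was not tested. The match covers positions -32 to -27 from the start. Among the members, the windows of Isl1 and 1 of the 2 windows of Pax6 hold GATA matches as well.

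Neurod1, a basic helix-loop-helix factor directly downstream of Neurog3, had 2 tested probe sets. The brighter stood at 6.27, 6.27 and 6.27 in control jejunum, at 6.01, 5.74 and 6.72 in the mutant jejunum and at 6.07, 6.07 and 5.92 in the ileum. The mutant arrays lay on both sides of the control jejunum arrays, which were almost equal, and the ileum arrays lay below them. The difference between mutant and control jejunum was -0.11 (95% interval -0.59 to 0.36, adjusted p = 0.851 in limma), and between control ileum and control jejunum -0.25 (95% interval -0.72 to 0.23, adjusted p = 0.474). By the other probe set the group means were 5.87 ± 0.05 in control jejunum, 5.91 ± 0.19 in the mutant jejunum and 5.84 ± 0.19 in the ileum (SD, n = 3 each).

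Insm1, a zinc finger repressor that acts in endocrine precursors, stood at 5.32 ± 0.22 in control jejunum, 5.22 ± 0.20 in the mutant jejunum and 5.37 ± 0.15 in the ileum (SD, n = 3 each) by its brighter probe set. The groups overlapped, and the difference between mutant and control jejunum was -0.11 (95% interval -0.51 to 0.29, adjusted p = 0.826 in limma). Its other probe set ranged from 4.35 to 5.42 within control jejunum alone, more than the spread of its group means, and gave a difference of -0.05 (adjusted p = 0.958). Nkx2-2, a homeodomain factor needed for several hormone lineages, was near the filter level, with 4.97 ± 0.07 in control jejunum, 4.91 ± 0.18 in the mutant jejunum and 4.61 ± 0.29 in the ileum. The 3 ileum arrays lay below the 3 control jejunum arrays, by a difference of -0.36 (95% interval -0.79 to 0.07, adjusted p = 0.238 in limma).

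Pax4, a paired-box factor of serotonin and somatostatin lineages, was not tested, because only 1 array exceeded the filter level. It stood at 4.10, 4.08 and 4.08 in control jejunum, at 4.74, 4.68 and 5.24 in the mutant jejunum and at 4.93, 4.68 and 4.23 in the ileum. The deposited intensities were 1.29, 1.04 and 1.09 in control jejunum, 12.1, 11.3 and 22.4 in the mutant jejunum and 9.36, 7.76 and 2.30 in the ileum. Control jejunum lay at the bottom of the scale, and every mutant and ileum array lay above it. In the fit with no filter the differences from control jejunum were 0.80 in mutant jejunum (adjusted p = 0.0798 in limma) and 0.53 in control ileum (adjusted p = 0.138), and neither passed.

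Pax6, a paired-box factor of the cells that make incretin hormones, stood at 4.92, 4.999 and 4.96 in control jejunum, at 4.96, 4.85 and 4.88 in the mutant jejunum and at 5.35, 5.40 and 5.19 in the ileum by its brightest probe set. The jejunum groups overlapped and the ileum arrays lay above both. Control ileum minus control jejunum was 0.35 (95% interval 0.01 to 0.69, adjusted p = 0.145 in limma), and mutant jejunum minus control ileum was -0.41 (95% interval -0.75 to -0.08, adjusted p = 0.205), so neither was called. Mutant minus control jejunum was -0.06 (95% interval -0.40 to 0.27, adjusted p = 0.891). The other tested Pax6 probe set, above the filter level on 3 arrays, had means of 4.60, 4.88 and 5.02 in control jejunum, mutant jejunum and control ileum, with overlapping arrays. The 3 Pax6 probe sets below the filter had group means of 4.12 to 4.66.

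Isl1, a LIM-homeodomain factor of most hormone lineages, varied as much within groups as between them. By its brighter probe set it stood at 5.60, 4.73 and 5.59 in control jejunum, at 5.28, 5.09 and 5.86 in the mutant jejunum and at 5.63, 5.10 and 5.27 in the ileum. The difference between mutant and control jejunum was 0.10 (95% interval -0.51 to 0.72, adjusted p = 0.903 in limma). The other probe set had means of 5.26 ± 0.34, 5.44 ± 0.20 and 4.97 ± 0.28 in control jejunum, mutant jejunum and control ileum. There the mutant minus ileum difference was 0.47 (95% interval -0.01 to 0.95, adjusted p = 0.320 in limma). The 2 Isl1 probe sets gave opposite signs between control ileum and control jejunum, 0.02 and -0.29, and neither was called.

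Chgb encodes chromogranin B, which helps to form secretory granules. It stood at 10.25, 10.58 and 10.31 in control jejunum, at 9.86, 9.29 and 9.69 in the mutant jejunum and at 9.29, 9.34 and 9.43 in the ileum. The mutant and ileum arrays overlapped, and all 6 lay below the control jejunum arrays. Mutant jejunum was lower than control jejunum by a difference of -0.77 (SE 0.153, 95% interval -1.10 to -0.43, adjusted p = 0.0212 in limma). The call was lost with no scaling between arrays (adjusted p = 0.0721), with arrays centred on their medians (0.0507), and without control jejunum 2 (0.100), control jejunum 3 (0.0674) or mutant jejunum 2 (0.0728). It held in the other 15 of 20 alternatives. Control ileum was lower than control jejunum by a difference of -1.03 (95% interval -1.36 to -0.69, adjusted p = 0.00121 in limma), a call kept in all 20 alternatives. Mutant jejunum minus control ileum was 0.26 (95% interval -0.08 to 0.60, adjusted p = 0.446). The deposited, unscaled intensities were 1406, 1521 and 1505 in control jejunum, 1142, 757 and 817 in the mutant jejunum and 409, 530 and 539 in the ileum. On that scale the mutant and ileum arrays do not overlap, and with no scaling their difference was 0.84 (adjusted p = 0.00901), on arrays whose median over all probe sets itself differed by 0.41.

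Chga encodes chromogranin A, the most used marker of enteroendocrine cells and the source of several regulatory peptides. It stood at 7.65, 7.64 and 8.00 in control jejunum, at 7.42, 6.77 and 7.11 in the mutant jejunum and at 7.56, 7.49 and 7.33 in the ileum. Both the mutant and the ileum arrays lay below all control jejunum arrays, with a narrow gap for ileum. Mutant minus control jejunum was -0.66 (SE 0.179, 95% interval -1.06 to -0.27), and the adjusted p of 0.0740 in limma did not pass. It passed with array weights (-0.78, adjusted p = 0.0258) and without mutant jejunum 1 (-0.82, adjusted p = 0.0388). Control ileum minus control jejunum was -0.30 (95% interval -0.70 to 0.09, adjusted p = 0.284), which passed with no scaling (-0.77, adjusted p = 0.0133), where the median over all probe sets was -0.40. Mutant jejunum minus control ileum was -0.36 (95% interval -0.76 to 0.03, adjusted p = 0.355), and 0.12 with no scaling, so its sign depends on the scaling. In RNA of bulk samples, fewer enteroendocrine cells and less granin RNA in each cell cannot be told apart.

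The promoters of the 2 granins are shown because both hold TGACGT, the core of the cyclic AMP response element for which granin promoters are known. Capitals mark TGACGT on either strand, and both sequences are RefSeq windows of GRCm38.p6 on the plus strand, at chr12:102554691-102554990 for Chga and chr2:132781392-132781691 for Chgb.
Chga: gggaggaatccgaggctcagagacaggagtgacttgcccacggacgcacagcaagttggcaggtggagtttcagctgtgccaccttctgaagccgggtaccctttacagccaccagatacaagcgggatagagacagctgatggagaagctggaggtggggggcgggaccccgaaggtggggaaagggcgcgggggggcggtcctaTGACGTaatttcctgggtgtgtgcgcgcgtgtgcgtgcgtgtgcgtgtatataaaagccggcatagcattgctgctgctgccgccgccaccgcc
Chgb: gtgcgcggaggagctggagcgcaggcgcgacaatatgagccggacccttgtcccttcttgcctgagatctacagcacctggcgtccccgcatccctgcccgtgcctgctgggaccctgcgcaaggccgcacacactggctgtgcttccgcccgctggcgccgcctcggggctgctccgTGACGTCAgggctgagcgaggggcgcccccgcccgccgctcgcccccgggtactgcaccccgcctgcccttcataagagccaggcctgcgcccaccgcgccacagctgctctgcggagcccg
In Chga the motif covers positions -44 to -39 from the start. In Chgb it is found on both strands as overlapping matches, from -72 to -65. TGACGT was found on either strand in 7.51% of all promoter windows. Among the members, both Pax6 windows and the Isl1 window hold it too, so it is not particular to the granins. The E-box CANNTG, which basic helix-loop-helix factors such as Neurog3 and Neurod1 bind, was found 3 times in Chga and 2 times in Chgb. It was found in 72.3% of all windows. Windows were given for 7 of the 9 members, with 2 for Pax6, and the map of matches shows all 8.

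**Figure D2:**
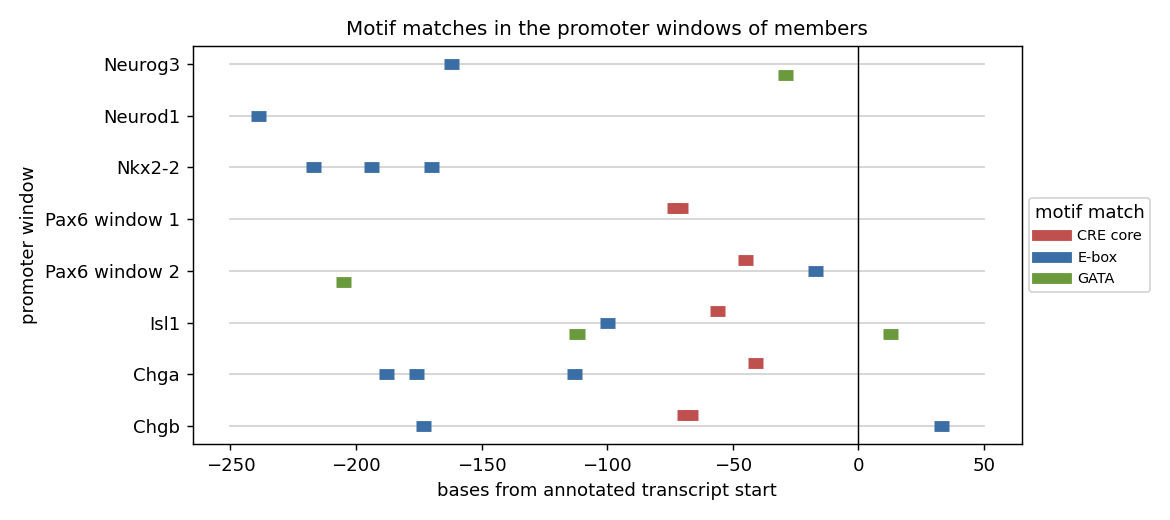
Matches, on either strand, of the core of the cyclic AMP response element (CRE core), the E-box and the GATA motif in 8 promoter windows of 7 members, against the distance in bases from the annotated transcript start. Chga, Chgb, Isl1 and both Pax6 windows hold CRE core matches shortly before the start. Neurog3, Isl1 and Pax6 window 2 hold GATA matches.

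Counted over the members, mutant against control jejunum gave 0 higher and 1 lower calls of 12 tested probe sets. The groups did not overlap for 3 of the 12, Neurog3, Chga and Chgb, all lower in the mutant, against 22.5% of all tested probe sets in either direction. The median difference of the 12 was -0.06, beside 0.00 over all probe sets. Control ileum against control jejunum gave 0 higher and 1 lower calls. There the groups did not overlap for 6 of the 12, against 37.4% of all, and the median was -0.13 beside 0.01. Mutant jejunum against control ileum gave 0 calls of 12 in either direction, with 1 of 12 at an unadjusted p under 0.05. The groups did not overlap for 1 of the 12, Pax6, against 20.6% of all, and the median was -0.03 beside -0.01. For the mutant comparison the share of members without overlap is close to that of all probe sets. The mutant and ileum comparisons share their control jejunum arrays.

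**Figure D3:**
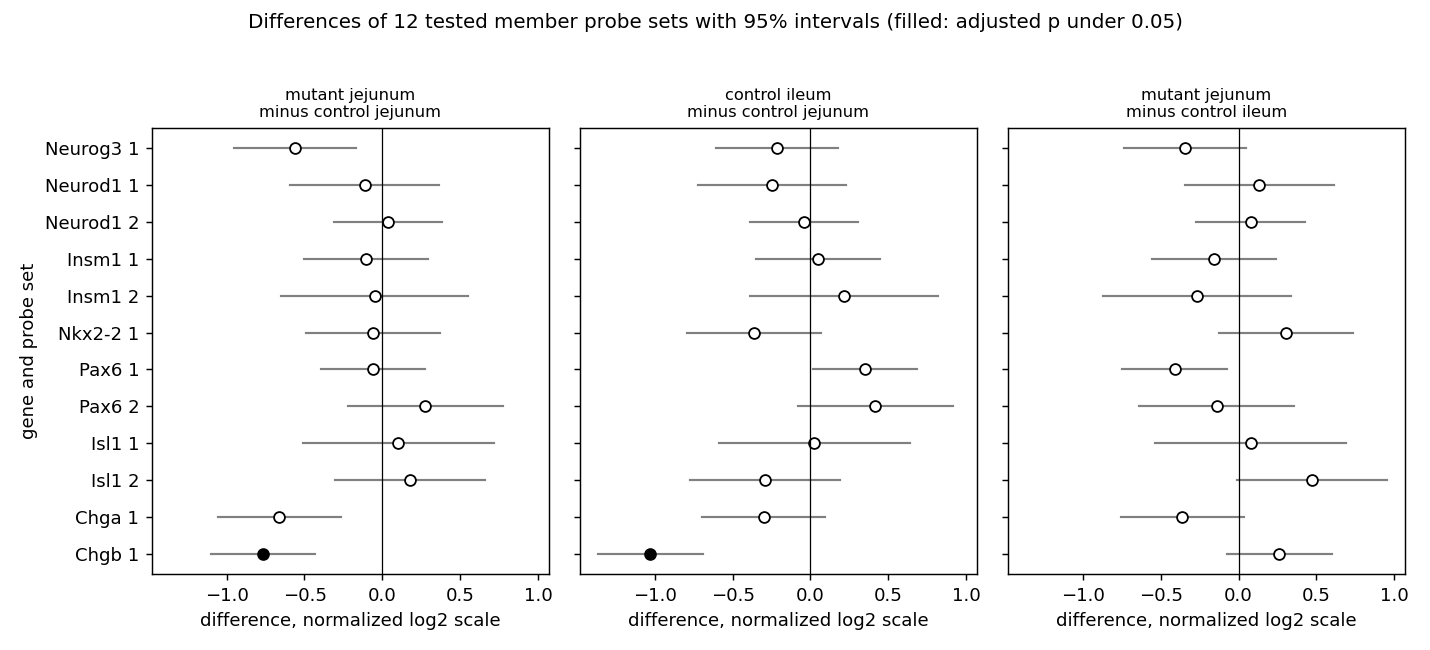
Differences in normalized log2 level (horizontal axes) of the 12 tested member probe sets, with 95% intervals as lines, in the 3 comparisons. Only Chgb is called, at -0.77 between mutant and control jejunum and at -1.03 between control ileum and control jejunum.

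Upstream of these members, the factors of the secretory lineage and of other enteroendocrine steps moved in both directions. Of 25 listed genes, 19 were tested, and 3 rose and 2 fell in the mutant jejunum against its control (median 0.09). Over all tested probe sets 3.56% were called in that comparison and 16.2% in control ileum against control jejunum. Foxa1, a forkhead factor of the secretory and L-cell lineages, rose by a difference of 1.30 (adjusted p = 0.00103 in limma), a call kept in all 20 alternatives. Spdef, a goblet and Paneth factor, rose by 0.59 and Tox3 by 0.70, while Dll1, a Notch ligand of secretory precursors, fell by 0.59 and Pdx1, a homeodomain factor of the proximal gut, fell by 1.08. These 4 calls were fragile, since the 20 alternatives took away those of Spdef in 15, Dll1 in 8, Pdx1 in 9 and Tox3 in 11, with adjusted p-values of 0.0503 to 0.168. Leaving out 1 array ended the call for 8 of the 9 arrays with Spdef, 5 with Dll1, 6 with Pdx1 and 7 with Tox3. In control ileum against control jejunum 7 of the 19 were higher (Foxa1 1.97, Atoh1 1.22, Spdef 1.13, Tox3 0.81, Sox9 0.67, Gfi1 0.62 and Hnf4a 0.37) and 4 lower (Pdx1 -2.33, Notch1 -0.91, Dll1 -0.78 and Id2 -0.76). With no scaling, Hnf4a changed sign to -0.16 and the calls of Hnf4a, Gfi1, Tox3 and Sox9 were lost (adjusted p = 0.237 to 0.448). Those of Gfi1, Id2 and Sox9 were lost without control jejunum 2 or 3 and without some ileum arrays (0.0535 to 0.105). In mutant jejunum against control ileum Pdx1 was higher (1.25), and Atoh1 (-0.77) and Foxa1 (-0.67) were lower, but each of these calls was lost without at least 3 of the single arrays. Atoh1, the factor that opens the secretory route ahead of Neurog3, differed by 0.46 between mutant and control jejunum (adjusted p = 0.186).

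Downstream, no gene of granule cargo and prohormone processing was called between mutant and control jejunum, 0 of 23 tested of 26 listed. Over all tested probe sets 3.56% were called there, so a count of 0 is near that share. The median of the 23 was -0.18, with 14 below 0. Scg2, a granin like Chgb, differed by -0.58 (adjusted p = 0.182 in limma), and Cpe, the carboxypeptidase that trims prohormones, by 0.03 (adjusted p = 0.975). In control ileum against control jejunum 5 were higher and 2 lower (median 0.20), beside 16.2% of all tested probe sets called. Higher were Snap25 (1.11) and Ptprn (1.10), Ptprn2 (0.99), Cpe (0.98) and Pcsk1n (0.60), genes of granule release, granule membrane and processing that neurons express as well. Lower were Ddc (-2.23), which makes serotonin and dopamine from their precursors, and Tph1 (-0.74), the first enzyme of serotonin synthesis in the gut. With no scaling the calls of Pcsk1n, Cpe and Ptprn were lost (adjusted p = 0.0756 to 0.458), and each was also lost without some single arrays of both groups (0.0644 to 0.0953). In mutant jejunum against control ileum Ddc was higher (1.42), and Snap25 (-1.31), Scg2 (-0.89), Pcsk1n (-0.84) and Ptprn2 (-0.74) were lower, and each of these calls was lost without at least 2 of the single arrays (0.0516 to 0.174).

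The hormones gave calls in both directions. Of 15 tested of 16 listed, 4 rose and 3 fell in the mutant jejunum against its control, with a median of -0.05. The share of all tested probe sets called there was 3.56%. Lower were Cck (-1.93, adjusted p = 0.000117 in limma), Gip (-1.69) and Sst (-1.07), the genes of cholecystokinin, gastric inhibitory polypeptide and somatostatin. Higher were Nts (1.65) and Pyy (1.46), the genes of neurotensin and peptide YY, and Adm (0.92) and Sct (0.68). Gcg differed by -0.30 (adjusted p = 0.213 in limma) and Ghrl by -0.03 (adjusted p = 0.971), and neither was called. The calls of Gip and Adm were lost without control jejunum 2 (adjusted p = 0.0552 and 0.0501), those of Sct without control jejunum 1 or 2 or mutant jejunum 2 (0.0601 to 0.0792), and that of Sst without any jejunum array other than mutant jejunum 1 (0.0530 to 0.0921). In control ileum against control jejunum 8 of the 15 were higher, led by Pyy (2.67), and 4 lower, led by Gip (-5.23) and Ghrl (-3.50). The 8 include Insl5 (0.87) and Ppy (0.91), which exceeded the filter level of 4.95 on the ileum arrays only. They were tested only because they were high in ileum, so their calls add nothing to the count of higher hormones. With no scaling the calls of Sct (0.18, adjusted p = 0.429) and Tac1 (0.47, adjusted p = 0.124) were lost, and that of Tac1 also without control jejunum 1 or control ileum 3 (0.0568 and 0.0610). In mutant jejunum against control ileum Gip (3.54) and Ghrl (3.47) were higher and 5 hormones lower, led by Gcg (-1.90). Among these 5, the call of Pyy was lost with no scaling, with median centring and without control ileum 2 (adjusted p = 0.0556 to 0.0794). That of Tac1 was lost without mutant jejunum 1 or 2 or control ileum 2 or 3 (0.0546 to 0.0718), and that of Ppy without mutant jejunum 1 or 2 (0.109 and 0.0708). Ppy did not pass the filter when any 1 of the ileum arrays was left out. Without mutant jejunum 1, 3 of the 5 were called, and without control ileum 2 only Gcg and Gal were. In the same comparison 7 of 13 tested markers of enteric neurons and 6 of 7 of smooth muscle were called lower, and 0 higher. The share of all tested probe sets called was 2.65%. The part of nerve and muscle in these hormone differences was not tested.

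**Figure D4:**
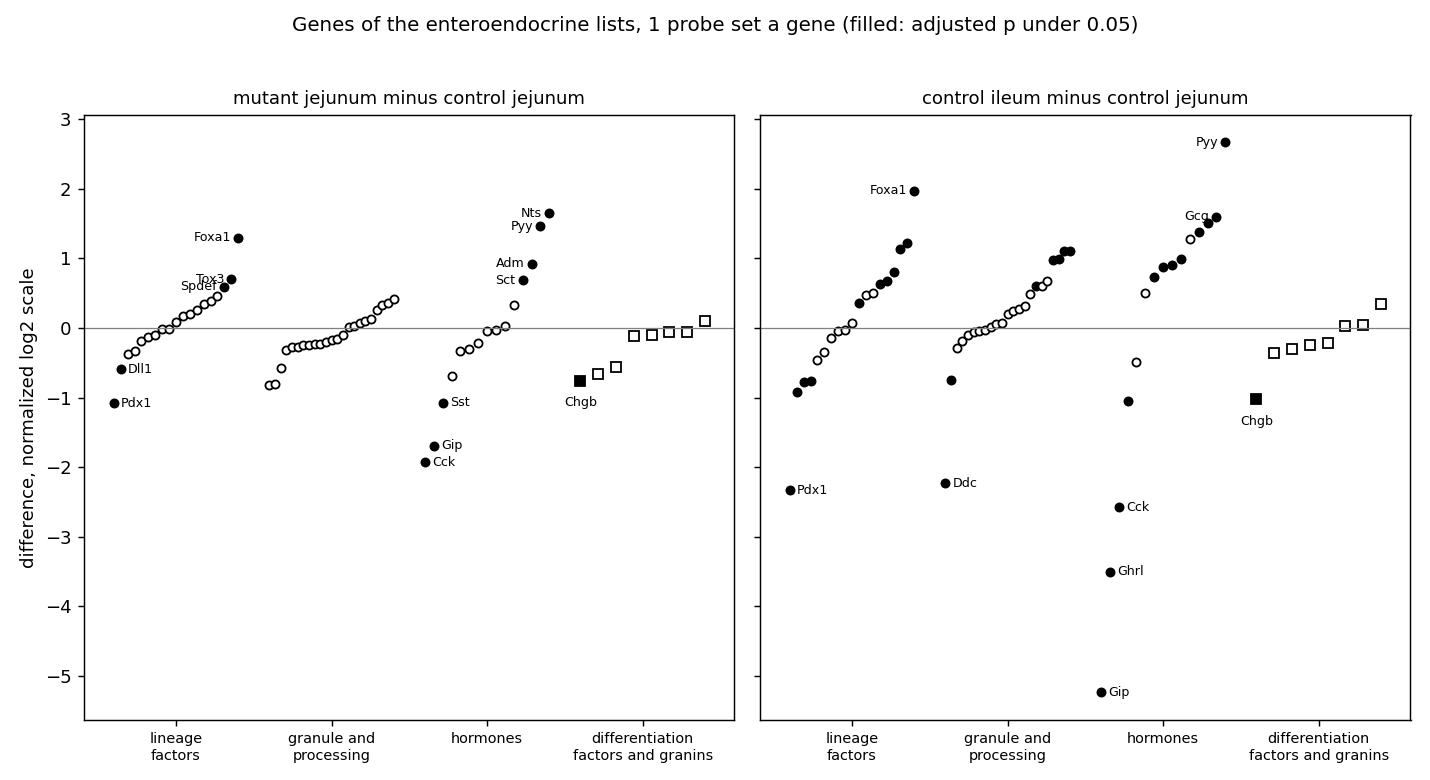
Differences in normalized log2 level (vertical axis) of the tested genes of 3 lists and of the 8 tested member genes, each at its brightest probe set, for mutant jejunum minus control jejunum (left) and control ileum minus control jejunum (right). Filled points are called, all called genes are named on the left, and on the right Chgb and the called genes with the larger differences. The hormone column spreads from -5.23 to 2.67 on the right, while the members spread from -1.03 to 0.35.

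**Figure D5:**
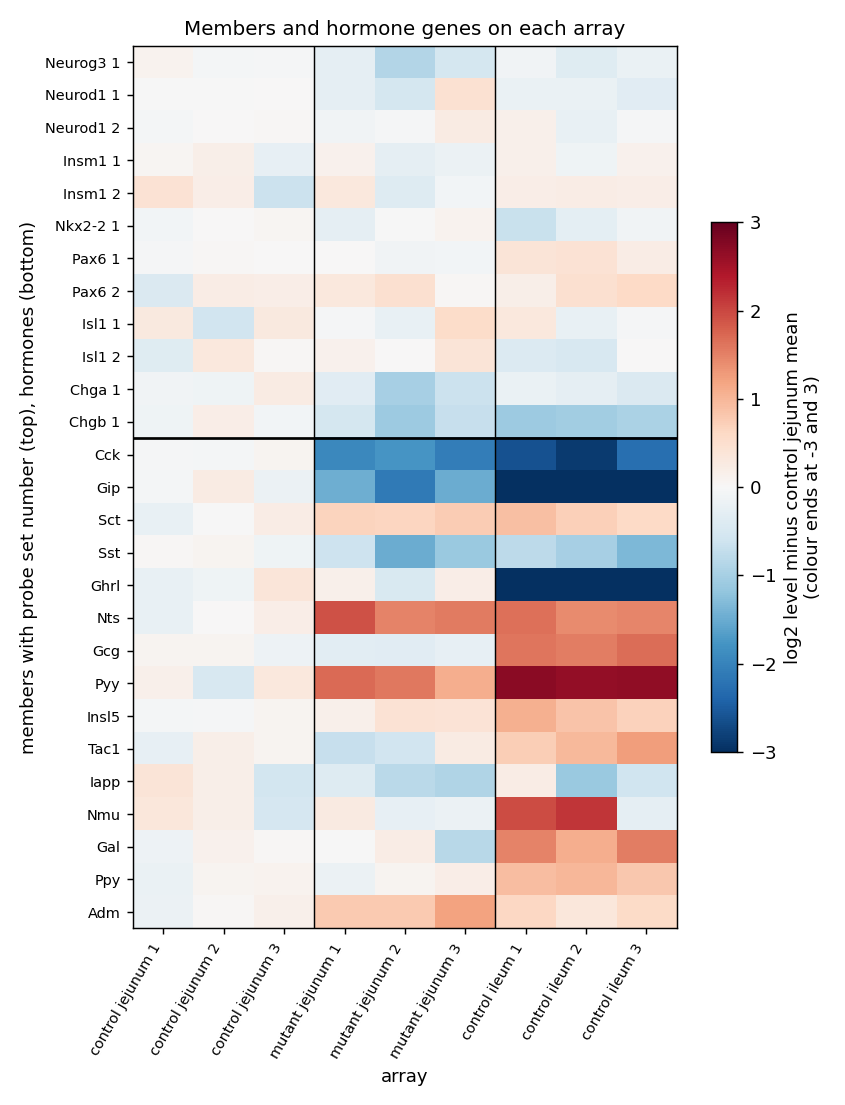
Normalized log2 level of each tested member probe set (top) and hormone gene (bottom) on each array, minus the mean of the control jejunum arrays, in colour with ends at -3 and 3. Chgb is lower on all 6 mutant and ileum arrays, by less than Cck, Gip or Ghrl at their lowest.

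Markers of other cells were counted beside the members, where 3.56% of all tested probe sets were called between mutant and control jejunum and 16.2% between control ileum and control jejunum. Of 13 tested markers of enteric neurons, which also make granins, 0 were called between mutant and control jejunum, and their summed normalized intensity was 628 to 1126 in control jejunum, 521 to 964 in the mutant jejunum and 775 to 918 in the ileum. Vip, a neuropeptide, made up 47.3% to 68.6% of that sum in control jejunum and at most 29.3% in control ileum. In control ileum 12 of the 13 were above 0, 5 were called higher and Vip was called lower than in control jejunum (median 0.49), and the mean level of the 13 did not overlap (5.62 to 5.81 against 6.01 to 6.27), and Nefm, a neurofilament, was below the filter. Of 4 tested glial markers 0 were called in any comparison. Their sum was lower on every mutant array (101 to 115) and every ileum array (86.2 to 126) than on every control jejunum array (139 to 143). Against control jejunum, 22.5% of all tested probe sets did not overlap for mutant jejunum and 37.4% for control ileum, in either direction. Those shares are of single probe sets and not of sums. Smooth muscle markers had 0 of 7 called between mutant and control jejunum and 6 of 7 higher in control ileum (median 1.05), with sums of 6111 to 8951, 5259 to 8039 and 12238 to 15684 in control jejunum, mutant jejunum and control ileum. Of the pancreatic markers, Ins2, Cpa1 and Cela2a were below the filter, and Prss2 and Ctrb1 were tested and not called. Of 8 general epithelial markers, Krt18 (0.84, adjusted p = 0.00271 in limma) and Krt19 (0.34, adjusted p = 0.0492) rose in the mutant, and 4 were higher in ileum, with sums of 46294 to 48090, 49475 to 54754 and 54121 to 56429. The part of these cells in the members' differences was not tested.

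The genes whose levels followed those of Chgb, Chga and Neurog3 most closely were found by the root mean square difference of mean-centred levels over the 9 arrays. These 3 are the tested members with the widest range of group means, at their brightest probe set, and the search was among 13829 other genes. For Chgb these were Slc19a1 (0.12), Sphk2 (0.13) and Tab3 (0.14), where the median gene stood at 0.52. Slc19a1, a folate carrier, had means of 8.68 ± 0.27 in control jejunum, 7.79 ± 0.33 in the mutant jejunum and 7.71 ± 0.11 in the ileum. For Chga they were Zc3h13 (0.12), Smim27 (0.14) and Rgs12 (0.14), with a median of 0.41, and for Neurog3 they were Tab1 (0.12), Ccsap (0.12) and Tgif2 (0.13), with a median of 0.37. None of these 9 genes is in the lists of enteroendocrine genes above.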

How the data were processed

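RNA was measured on 9 arrays of 9 mice, in 3 groups taken from the sample titles. The deposited values are 1 intensity per probe set and array, made by the authors with GCOS, per the submitters' processing notes. The sources used here name neither its version nor its settings. From 45101 probe sets, 64 array controls were removed. The rest were set to log2(intensity + 16) and quantile normalized, because the arrays differed in brightness. A global shift of RNA could then not be seen, and differences of dim probe sets are understated.

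Testing required at least 3 of 9 arrays above the 40th percentile (4.95), which kept 29307. Differences were tested with limma 3.58.1 in R 4.3.3 (lmFit over all 9 arrays, eBayes with an intensity trend, two-sided), with Benjamini-Hochberg adjustment over all tested probe sets. Steps were checked on simulated data. Probe sets were named from the annotation table of the array, in which 34945 probe sets have 1 gene, 932 several and 9160 none. A gene with more than 1 tested probe set was represented by the one brightest on average. Arrays give no read depth, and 3 per group limits the precision. An exact permutation test of 3 against 3 cannot reach the threshold and was not used.

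The text names all 9 members, genes of 11 lists that were called or serve as examples, and for the 3 tested members with the widest range of group means the 3 genes of most like pattern. The members and lists were chosen with earlier results of these data known. In all, 20 alternative settings were run.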

Additional observations from a re-analysis of the deposited data

How the results depend on the processing

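Over all probe sets, 511 were higher and 533 lower in mutant than in control jejunum, 2449 and 2303 in control ileum than in control jejunum, and 406 and 372 in mutant jejunum than in control ileum; 1, 1 and 0 member probe sets were called. With no scaling between arrays, where the median of all probe sets stood at -0.40 for ileum and at 0.41 for mutant against ileum, the counts were 329 and 330 (0 members), 619 and 10013 (5 members), and 8349 and 148 (2 members). With arrays centred on their medians, they were 523 and 320 (0 members) in mutant against control jejunum, 1543 higher in ileum and 936 higher in mutant than in ileum. With array weights they were 1035 and 963 (2 members) in mutant against control jejunum, and 855 and 825 in mutant against ileum. In the latter, 267 were higher without the filter, 247 without the intensity trend, and 162 higher and 170 lower with only the 2 groups. Leaving out single arrays gave 207 to 499 higher and 193 to 508 lower (0 to 2 members) in mutant against control jejunum, 1486 to 3106 and 1376 to 2848 in ileum against jejunum, and 123 to 549 and 71 to 500 in mutant against ileum.

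Differences that changed sign were all of uncalled factors and of Chga and Hnf4a. In mutant against control jejunum these were the second Neurod1 probe set (-0.0232 with trimmed-mean scaling, -0.0295 with array weights), the second of Insm1 (0.0275 with a pseudocount of 1, 0.0074 with weights) and the first of Isl1 (-0.12 with weights). In ileum against control jejunum with no scaling they were Insm1 (-0.31 and -0.0925), Isl1 (-0.33) and Hnf4a (-0.16), and Isl1 with weights (-0.0871). In mutant against ileum with no scaling they were Insm1 (0.15 and 0.0057), the second Pax6 probe set (0.11) and Chga (0.12), and with weights Neurod1 (-0.10) and Isl1 (-0.0317). Without single arrays, mutant against control jejunum ranged from -0.395 to 0.0925 and from -0.0667 to 0.11 for the 2 Neurod1 probe sets, from -0.37 to 0.17 for the second of Insm1, from -0.0972 to 0.0406 for Nkx2-2, and from -0.18 to 0.26 and -0.00225 to 0.333 for Isl1. Ileum against control jejunum ranged from -0.138 to 0.054 for the second Neurod1 probe set, from -0.0724 to 0.138 and -0.10 to 0.43 for Insm1, and from -0.263 to 0.169 for Isl1. Mutant against ileum ranged from -0.147 to 0.341 and -0.0271 to 0.175 for Neurod1 and from -0.15 to 0.24 for Isl1. The cause was not tested.

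With 1 mouse to an array, the labels' replicate numbers mark no shared animal. Same-numbered arrays deviated together with correlations of -0.0727 to 0.165, and differently numbered arrays with -0.189 to 0.194. With 3 arrays a group, these correlations cannot decide what else the numbers may stand for. The replicate block gave 462 higher and 479 lower in mutant against control jejunum, 2375 and 2210 in ileum against jejunum, and 353 and 324 in mutant against ileum, with 1, 1 and 0 members called. Signal over background limits Pax4, Nkx2-2 and Pax6, which lay near the filter level.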

Other observations

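Markers of the other secretory cells of the epithelium were counted as well. Over all tested probe sets 3.56% were called between mutant and control jejunum and 16.2% between control ileum and control jejunum. Of 5 tested Paneth cell markers, each at its brightest probe set, 0 were called between mutant and control jejunum. For Lyz1, 1 of 3 tested probe sets was called there, though not the brightest. In control ileum 3 of the 5 were higher than in control jejunum (median difference 1.00), namely Mmp7 (1.91), Ang4 (1.00) and Itln1 (0.81). Ang4, an antimicrobial ribonuclease, differed by -1.02 between mutant and control jejunum (adjusted p = 0.0671 in limma). Of 6 tested goblet cell markers 0 were called in the mutant, and in control ileum Agr2 (0.97) and Clca1 (0.48) were higher and Fcgbp (-0.43) lower than in control jejunum.

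None of 5 tested tuft cell markers was called in limma in any comparison, and all 5 were above 0 in each of the 3. Their summed normalized intensity was 369, 363 and 214 in control jejunum, 818, 699 and 274 in mutant jejunum and 649, 566 and 221 in control ileum. Replicate 3 was the lowest array in each group.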
